A study of Homo sapiens with 6 samples.

Results

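The 9 protein-coding genes described here are not classical HOX genes and stood out for lower counts after siRNA against mutant NPM1: IGFBP5, STC1, PTK7, ADGRA3, SYNPO, TP53INP2, BAHCC1, SATB1 and FAM135B. They are part of the 28307 genes of the count table, and all 9 were found there by symbol and passed the filter on low counts. They were chosen by their fold change and separation between siNPM1c and siControl in these same 6 libraries. Their decreases are therefore a description and carry no test. SATB1 is grouped with the outsiders by its working label, yet its protein has CUT repeats and an atypical homeodomain, which places it in the CUT class of homeobox genes.

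The libraries came from OCI-AML3, an established human acute myeloid leukaemia line from a single patient that carries an NPM1 mutation, although its genotype field in the labels reads WT. Cells of both groups were lipofected with siRNA at 10 nM, siNPM1c against the mutant transcript or siControl as a control, and total RNA was taken on day 3. Each group had 3 libraries, and all 6 share a batch label. Totals ran from 15075235 to 25190122 counts per library, of which rRNA and 7SL genes took 67.6% to 68.6% in the siControl libraries and 74.8% to 75.9% in the siNPM1c libraries. The target gene NPM1 had 922, 1366 and 922 counts in siControl replicates 1 to 3 and 293, 500 and 350 in siNPM1c replicates 1 to 3. As a whole gene it stood at 46.6% of its control level. Counts per gene do not separate mutant from normal transcripts, so the fall of each was not measured. Nothing in the labels says that replicates were separate cultures, so the p-values given for other genes reflect only how much these libraries vary, and that variation may be technical.

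Mutant nucleophosmin is exported to the cytoplasm, and leukaemias that carry it keep a stem-cell-like programme in which HOX genes and their cofactors are active. The 9 genes have separate jobs outside that programme's core. IGFBP5 and STC1 encode secreted proteins of the insulin-like growth factor (IGF) system, PTK7 and ADGRA3 encode cell-surface receptors, and SYNPO encodes an actin-associated protein. TP53INP2 works in autophagy and nuclear receptor signalling, BAHCC1 and SATB1 encode chromatin proteins, and the function of FAM135B is little described. In RNA from bulk cultures, fewer cells of a type and less RNA per cell cannot be told apart.

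All values below are CPM, that is counts scaled to a common library size with TMM factors, a method that takes most genes as level. Levels are given as mean ± SD over 3 libraries. The 9 genes held between 58 and 10254 counts in a library. In all 9, every siNPM1c library lay below every siControl library, a separation that 24.9% of the 12938 genes tested also showed. Since this contrast chose the genes, nothing is read from that count. Their log2 fold changes, siNPM1c minus siControl, ran from -1.59 to -0.67 with a median of -1.16, against a median of -0.01 over all genes tested.

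**Figure D1:**
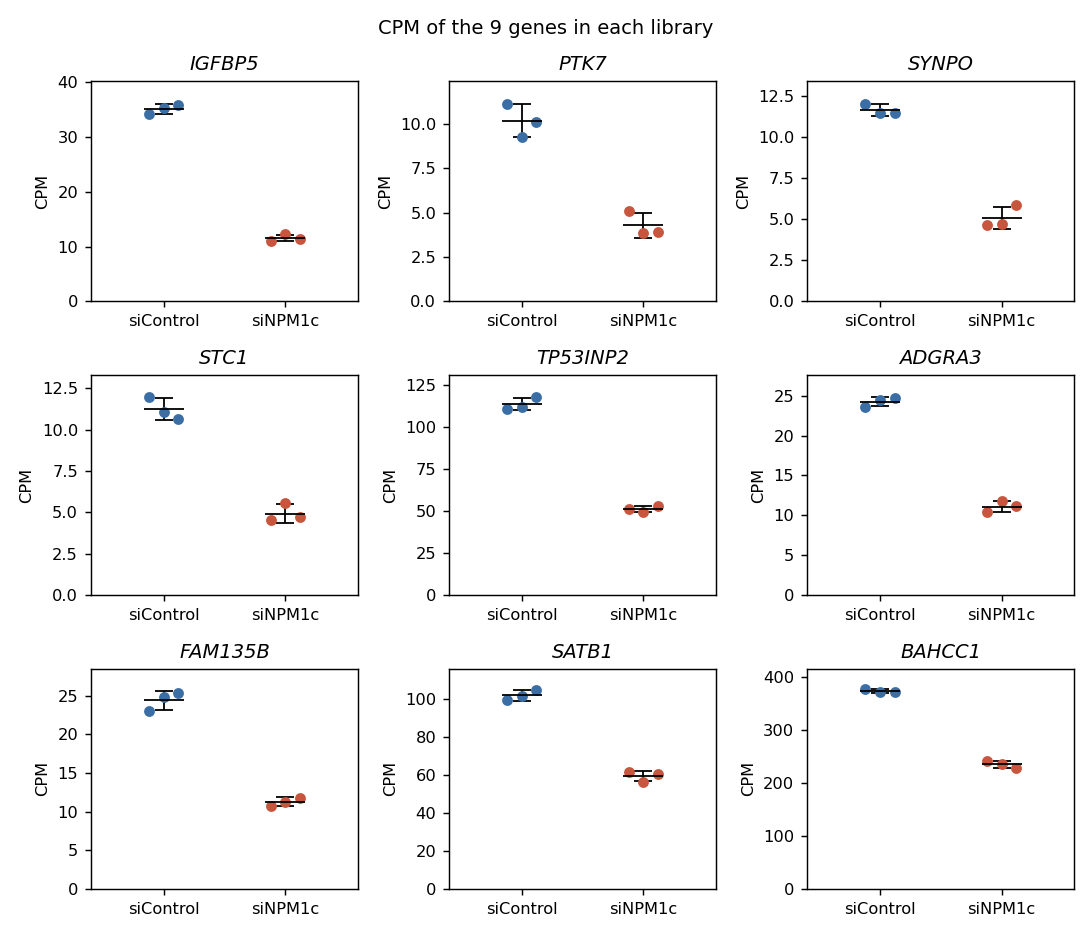
CPM (vertical axis, from 0, a separate scale for each gene) of the 9 genes in the 3 siControl (blue) and 3 siNPM1c (red) libraries, with replicates 1 to 3 from left to right. Horizontal lines are means and bars are SD. In each panel all blue points lie above all red points, with the widest relative gap for IGFBP5 and the narrowest for BAHCC1.

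IGFBP5 (Entrez gene 3488, chromosome 2, 216672105 to 216695549 on GRCh38.p14, minus strand) encodes a secreted protein that binds IGFs and controls how much of them reaches their receptor. It was at 34.1, 35.3 and 35.9 CPM in siControl replicates 1 to 3 and at 11.1, 12.2 and 11.4 CPM in siNPM1c replicates 1 to 3. The lowest control library was thus 2.79 times the highest siNPM1c library, the widest gap of the 9. The mean went from 35.1 ± 0.876 to 11.6 ± 0.593 CPM, a log2 fold change of -1.59 ± 0.07 (SE).

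STC1 (Entrez gene 6781, chromosome 8, 23841929 to 23854806, minus strand) encodes stanniocalcin-1, a secreted glycoprotein that inhibits the protease PAPP-A, which in turn cleaves IGF-binding proteins. Its values were 11.95, 11.1 and 10.7 CPM in the controls and 4.51, 5.56 and 4.73 CPM after siNPM1c. The log2 fold change was -1.16 ± 0.11 (SE), and the groups were 1.92-fold apart at their nearest libraries. With 60, 116 and 70 counts in the siNPM1c libraries, its SD of 11.2% of the mean there was about the 11.0% that counting alone gives at this depth.

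PTK7 (Entrez gene 5754, chromosome 6, 43076314 to 43161715, plus strand) encodes a receptor with an inactive kinase domain that acts in Wnt signalling and planar cell polarity. It was measured at 11.1, 9.27 and 10.1 CPM in the controls and at 5.12, 3.83 and 3.92 CPM after siNPM1c. It was the least even of the 9, with an SD of 9.09% of the mean in siControl and 16.7% in siNPM1c, where 58 to 80 counts per library give 12.1% from counting alone. The mean fell from 10.2 ± 0.924 to 4.29 ± 0.717 CPM, a log2 fold change of -1.26 ± 0.12 (SE), and siNPM1c replicate 1 was the highest of its group.

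ADGRA3 (Entrez gene 166647, chromosome 4, 22387376 to 22516066, minus strand) encodes an orphan adhesion G protein-coupled receptor. Its values were 23.6, 24.5 and 24.7 CPM in the controls and 10.4, 11.7 and 11.1 CPM after siNPM1c. The groups were tight, with a 2.01-fold gap between the nearest libraries and a log2 fold change of -1.12 ± 0.08 (SE).

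SYNPO (Entrez gene 11346, chromosome 5, 150586010 to 150659207, plus strand) encodes synaptopodin, which binds actin and alpha-actinin and is known from kidney podocytes and dendritic spines. It was at 12.1, 11.5 and 11.5 CPM in the controls and at 4.66, 4.74 and 5.88 CPM after siNPM1c. In the siNPM1c group replicate 3 stood above the other libraries, and leaving it out moved the log2 fold change from -1.20 to -1.30.

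TP53INP2 (Entrez gene 58476, chromosome 20, 34704344 to 34713436, plus strand) encodes a protein that moves from the nucleus to forming autophagosomes, where it binds proteins of the LC3 and GABARAP family. Its values were 111, 112 and 118 CPM in the controls and 50.9, 49.1 and 52.9 CPM after siNPM1c, so the level fell to 44.8%, with an SD of 3.28% and 3.66% of the mean in the 2 groups. Among the 7 genes that fell by more than 1 on the log2 scale it had the highest counts, 1993 to 3087 in the controls, and the smallest SE (-1.16 ± 0.04).

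BAHCC1 (Entrez gene 57597, chromosome 17, 81395457 to 81466331, plus strand) encodes a chromatin protein whose BAH domain recognises trimethylated lysine 27 of histone H3. It was by far the most counted of the 9, at 377, 371 and 371 CPM in the controls and 241, 236 and 228 CPM after siNPM1c. Its decrease was the mildest in relative terms, to 63.0% of the control level (-0.67 ± 0.02, SE). In absolute terms it was the largest, 138 of the 312 CPM by which the 9 genes together went down, from a sum of 706 to 394 CPM.

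SATB1 (Entrez gene 6304, chromosome 3, 18345377 to 18445592, minus strand) encodes a protein that anchors chromatin loops and is best known from T-cell development. Its values were 99.7, 102 and 105 CPM in the controls and 61.8, 56.4 and 60.7 CPM after siNPM1c. That is 58.0% of the control level and a log2 fold change of -0.79 ± 0.04 (SE).

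FAM135B (Entrez gene 51059, chromosome 8, 138130023 to 138497730, minus strand) was at 23.0, 24.9 and 25.3 CPM in the controls and at 10.7, 11.3 and 11.8 CPM after siNPM1c. The mean fell from 24.4 ± 1.25 to 11.3 ± 0.570 CPM (-1.11 ± 0.08, SE), close to the size seen for ADGRA3.

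The choice of the 9 has no numeric limit. It was made by fold and separation in this same contrast, so the places below describe that choice. The call needed to enter the list is no test of the 9. Of 1681 genes that were called lower, averaged 5 CPM or more and had separate groups, ordered by fold, IGFBP5 took place 1, PTK7 4, SYNPO 5, STC1 6, TP53INP2 7, ADGRA3 9 and FAM135B 10. Only 3 other genes stood among them, HOXA13, HOXB-AS3 and H3C1, and the next below FAM135B (-1.11) were NPM1 (-1.10), HOXA11 (-1.07) and ACAD8 (-1.04). SATB1 at place 73 and BAHCC1 at place 136 were passed by 65 and 127 genes that are not among the 9. Among all 12938 genes tested, without those limits on level and separation, the places by fold were 20 for IGFBP5, 73 for PTK7, 91 for SYNPO, 104 for STC1, 105 for TP53INP2, 126 for ADGRA3, 129 for FAM135B, 507 for SATB1 and 770 for BAHCC1.

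Levels can be compared between genes only per length, here CPM per kilobase of merged exons in GENCODE 29. On that scale BAHCC1 (27.7 ± 0.257) and TP53INP2 (26.8 ± 0.880) led in the siControl libraries and did not differ beyond their spread. SATB1 (7.62 ± 0.207) and IGFBP5 (5.45 ± 0.136) came next. STC1 (2.71 ± 0.159) and ADGRA3 (2.62 ± 0.0645) were again within their spread of each other. FAM135B (1.79 ± 0.0917), SYNPO (1.14 ± 0.0332) and PTK7 (1.13 ± 0.102) closed the order, the last pair within its spread. Levels per length ranged from above 41.4% of the tested protein-coding genes for PTK7 to above 97.7% for BAHCC1. In the siNPM1c libraries BAHCC1 (17.4 ± 0.497) stood clear of TP53INP2 (12.1 ± 0.441), and IGFBP5 was down to 1.79 ± 0.0921.

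The decreases depended on scaling in size but not in sign. The kept sign is a description, since these same libraries chose the genes. With library sizes alone, where rRNA and 7SL counts are part of the depth, the median of all genes tested was -0.48 and the 9 genes ran from -1.14 for BAHCC1 to -2.06 for IGFBP5. The exons of the 9 genes fall into 2 groups by GC content. This GC was 59.8% to 65.5% for IGFBP5, PTK7, SYNPO, TP53INP2 and BAHCC1, and 43.7% to 45.7% for STC1, ADGRA3, FAM135B and SATB1. Its median was 50.8% over tested protein-coding genes. When each library's GC trend was removed, the 5 GC-rich genes had larger decreases (IGFBP5 -1.69, TP53INP2 -1.25, BAHCC1 -0.79). The 4 GC-poor genes had smaller ones (ADGRA3 -0.99, STC1 -1.04, SATB1 -0.68). Exons were long in most, with a median merged length of 9.25 kb against 5.12 kb over tested protein-coding genes. STC1 (4.15 kb) and TP53INP2 (4.23 kb) were shorter than that median.

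**Figure D2:**
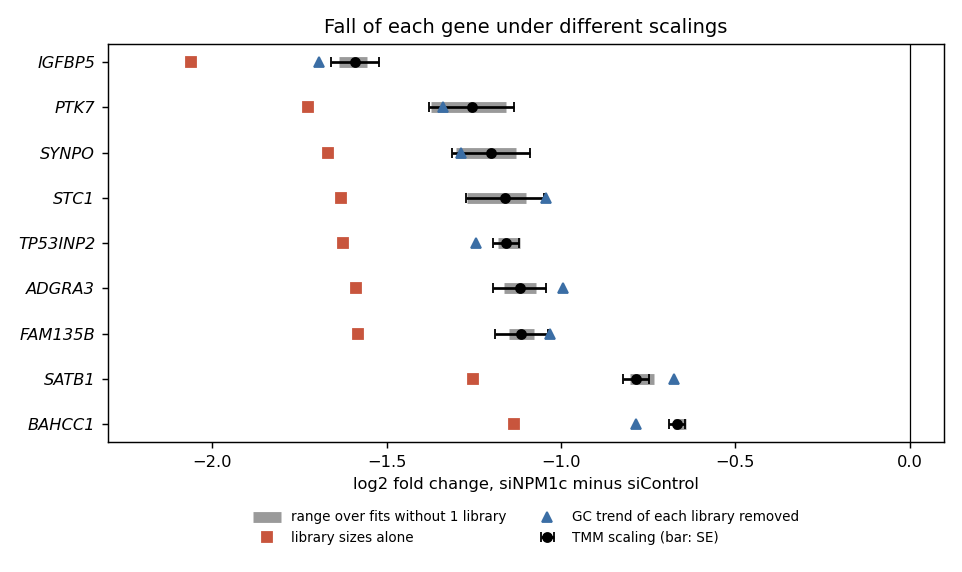
log2 fold change, siNPM1c minus siControl (horizontal axis), of the 9 genes with TMM scaling (black, bar SE), with library sizes alone (red squares), with the GC trend removed (blue triangles) and over fits that leave out 1 library (grey range). All values lie below 0, and library sizes alone moved every gene left by nearly the same amount.

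The bases before the start sites are given as a description, since the shared decrease of the 9 genes was fixed by how they were chosen. RefSeq promoters on GRCh38.p14 were held for 7 of the 9, that is IGFBP5, PTK7, SYNPO, TP53INP2, BAHCC1, SATB1 and ADGRA3. No entry was held for STC1 and FAM135B. Those of 4 genes are printed, since they span the contrast between CpG-poor and CpG-rich starts. Each runs 5′ to 3′ on the gene's strand over the 120 bases before the RefSeq start, and capitals mark matches to the GC box or the CCAAT box. They lie at chr2:216695550-216695669 (IGFBP5, minus strand), chr3:18445593-18445712 (SATB1, minus), chr20:34704224-34704343 (TP53INP2, plus) and chr4:22516067-22516186 (ADGRA3, minus).
IGFBP5: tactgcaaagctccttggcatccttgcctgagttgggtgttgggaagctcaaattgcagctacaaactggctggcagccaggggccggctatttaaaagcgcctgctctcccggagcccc
SATB1: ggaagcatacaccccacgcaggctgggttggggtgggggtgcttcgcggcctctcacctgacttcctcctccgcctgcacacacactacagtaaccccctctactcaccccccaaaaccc
TP53INP2: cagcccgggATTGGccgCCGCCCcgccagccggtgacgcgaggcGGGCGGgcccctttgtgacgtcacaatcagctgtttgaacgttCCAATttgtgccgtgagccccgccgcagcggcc
ADGRA3: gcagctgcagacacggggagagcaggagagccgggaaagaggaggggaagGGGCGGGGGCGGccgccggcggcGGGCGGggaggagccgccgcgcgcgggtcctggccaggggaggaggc

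The promoters had little in common. Over 300 bases, from 250 before to 50 after the start, IGFBP5 held 9 CpG sites, SYNPO and SATB1 12 each, BAHCC1 27, PTK7 34, TP53INP2 35 and ADGRA3 40. The median was 26 over the promoters of 9594 tested protein-coding genes. IGFBP5 was thus at percentile 10.6 of tested promoters by CpG sites and ADGRA3 at percentile 86.8. For SYNPO the RefSeq table takes a start inside the gene, downstream of the gene start given above, so its CpG sites and GC box describe that internal start. The GC box (GGGCGG, either strand) was found in 4 of 7, PTK7, SYNPO, TP53INP2 and ADGRA3, against 70.2% of tested promoters, and the CCAAT box (CCAAT, either strand) in TP53INP2 and BAHCC1, against 36.7%. Another 5 motifs were searched on both strands and found in none of the 7: a TATA box (TATAAA, in 5.68% of tested promoters), the MEIS core (TGACAG, 12.9%), a PBX-HOX core (TGATNNAT, 3.07%), a HOXA9 core (TTTATNG, 5.76%) and the E-box (CACGTG, 10.3%). No match says only that these letters are not in this window.

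Relatives of the 9 genes were taken from 7 lists of family and pathway genes. Of 146 listed genes 102 were tested, and 23 of them (22.5%) were called lower and 32 (31.4%) higher at an adjusted p under 0.05. Over all genes tested 21.4% were called lower and 21.3% higher. The median log2 fold change of the relatives was 0.00. Calls and adjusted p for relatives and neighbours are edgeR quasi-likelihood results, adjusted by Benjamini-Hochberg over all genes tested.

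**Figure D3:**
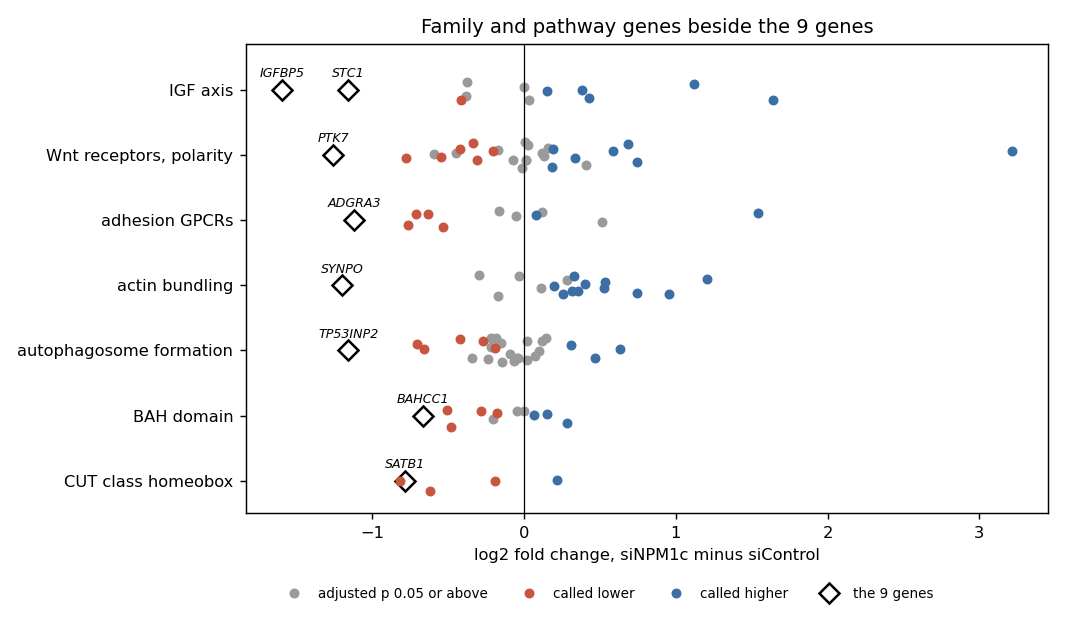
log2 fold change, siNPM1c minus siControl (horizontal axis), of each tested gene in 7 family or pathway lists (rows, points spread vertically for legibility), coloured by call, with 8 of the 9 genes as open diamonds (FAM135B has no list). The diamonds, chosen for their decrease, sit at or near the left end of every row, while relatives lie on either side of 0. The actin bundling row also holds synaptopodin partners.

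In the IGF system, the binding proteins split. IGFBP3, the main carrier of IGFs in blood, was at 7.06, 8.33 and 8.24 CPM in the controls and 25.9, 26.2 and 21.9 CPM after siNPM1c, so every siNPM1c library lay above every control. It rose 3.11-fold (adjusted p = 6.03e-49), a size close to the 3.01-fold decrease of IGFBP5. IGFBP7 rose 2.17-fold, from 14.2 ± 1.87 to 30.5 ± 0.737 CPM (adjusted p = 1.26e-37). IGFBP4 rose 1.35-fold, a direction that was -0.04 on the log2 scale with library sizes alone. IGFBP1, IGFBP2 and IGFBP6 had 10 or fewer counts over all 6 libraries and were not tested.

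The ligand genes IGF1 and IGF2 (14 and 6 counts in all) and the protease genes PAPPA and PAPPA2 (48 and 36) were also below the filter. The receptor gene IGF1R was at 2.91 ± 0.211 and 2.21 ± 0.360 CPM and was not called (adjusted p = 0.103). IRS1, an adaptor of the insulin and IGF receptors, fell by 0.41 (SE 0.06) on the log2 scale. STC2, the paralog of STC1, was at 7.12, 5.98 and 6.14 CPM in the controls and 8.65, 7.76 and 8.64 CPM after siNPM1c. It rose by 0.38 ± 0.12 log2 (SE, adjusted p = 0.00367) with TMM scaling and was at -0.09 with library sizes alone. In the list as a whole 5 of 10 tested genes rose and 1 fell, with a median of 0.09, and 3 of the 5 (IGFBP4, IGF2R and STC2) turned sign with library sizes alone.

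Among Wnt receptors and planar cell polarity genes, the setting in which PTK7 is known, 6 of 26 tested genes fell and 7 rose, with a median of 0.01. CELSR1, a polarity cadherin gene, fell from 27.1 ± 1.26 to 20.5 ± 2.03 CPM (adjusted p = 6.15e-09), CELSR2 by 0.55 (SE 0.15) and the Frizzled receptor gene FZD1 by 0.31 (SE 0.07) on the log2 scale. ROR2, a Wnt5a receptor gene, went the other way. It had 2, 6 and 4 counts in the controls and 17, 52 and 20 after siNPM1c, from 0.181 ± 0.0607 to 1.71 ± 0.680 CPM (adjusted p = 1.33e-13). PRICKLE1 rose from 27.1 ± 0.765 to 40.5 ± 2.47 CPM (adjusted p = 1.81e-20). With library sizes alone it was at 0.12 log2 and lost its call (adjusted p = 0.0691). SCRIB rose by 0.18 ± 0.03 log2 (SE) but was at -0.29 with library sizes alone and lost its call with the GC trend removed (adjusted p = 0.0571). Without siNPM1c replicate 2 the number of genes lower was 3. VANGL2 and ROR1 had 10 and 5 counts in all and were not tested.

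Adhesion G protein-coupled receptors held 4 of 10 tested genes that fell and 2 that rose, with a median of -0.11. ADGRE5, the gene of the leukocyte antigen CD97, was at 97.3, 96.7 and 98.3 CPM in the controls and 67.9, 66.0 and 68.7 CPM after siNPM1c (adjusted p = 2.52e-33). ADGRE2 fell from 48.7 ± 3.60 to 29.9 ± 1.12 CPM (adjusted p = 7.75e-30), and ADGRE1 by 0.77 (SE 0.22) on the log2 scale. ADGRA2, the nearest tested paralog of ADGRA3, was far from its size, at 179 ± 5.40 and 190 ± 1.71 CPM. That is 0.08 ± 0.03 log2 (SE, adjusted p = 0.00742), a call lost without siControl replicate 3 (0.0913) and with the GC trend removed (-0.02, adjusted p = 0.627), and the value was -0.39 with library sizes alone. ADGRD1 rose 2.91-fold at low level, from 0.558 ± 0.0206 to 1.69 ± 0.348 CPM (adjusted p = 7.95e-06).

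Most tested genes of the list of actin bundling genes and synaptopodin partners rose with TMM scaling, while SYNPO had been chosen for its decrease. Of 16 tested, 11 rose (68.8%, against 21.3% of all genes tested) and 0 fell, with a median of 0.32. With library sizes alone the median was -0.15, and 6 of the 11 (ACTN1, ACTN4, FLNA, VASP, BAG3 and RHOA) turned sign. The edgeR count of lower genes was also 0 at an unadjusted p under 0.05. At an adjusted p under 0.05 it was 0 with DESeq2 and 8 with library sizes alone. The paralog SYNPO2 was at -0.30 ± 0.28 log2 (SE, adjusted p = 0.415). The tropomyosin gene TPM4 was at 22.02, 22.2 and 21.3 CPM in the controls and 51.6, 48.5 and 51.6 CPM after siNPM1c, a 2.30-fold rise (adjusted p = 2.78e-56). ZYX, the gene of the focal adhesion protein zyxin, rose 1.94-fold (adjusted p = 7.1e-52). FLNA, a crosslinker of actin filaments, rose 1.26-fold with TMM scaling and was at -0.14 log2 with library sizes alone. TPM1, a further tropomyosin gene, was not tested, with 8, 15 and 13 counts in the controls and 1, 3 and 3 after siNPM1c, lower in every siNPM1c library and chosen after its values were seen. SYNPO2L had 16 counts in all and was not tested.

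Around TP53INP2, 5 of 26 tested genes of autophagosome formation fell and 3 rose, with a median of -0.12. MAP1LC3A, a member of the LC3 family that TP53INP2 binds, was at 24.4, 22.9 and 24.5 CPM in the controls and 15.05, 14.7 and 14.05 CPM after siNPM1c. It fell 1.63-fold (adjusted p = 1.03e-17), with no overlap between groups. The paralog TP53INP1, a p53 target, was at 5.12, 6.23 and 4.79 CPM in the controls and 4.36, 3.07 and 3.17 CPM after siNPM1c (-0.66 ± 0.15, SE, adjusted p = 0.000101). VMP1 fell by 0.27 (SE 0.08), a call lost with the GC trend removed (-0.15, adjusted p = 0.128). SQSTM1, the cargo receptor p62 that autophagy degrades, rose 1.55-fold, from 127 ± 3.00 to 196 ± 4.49 CPM (adjusted p = 6.42e-59). OPTN, a further cargo receptor gene, rose by 0.31 ± 0.06 log2 (SE) and was at -0.16 with library sizes alone. GABARAPL1 rose by 0.47 ± 0.17, was at -0.00 with library sizes alone, and lost its call without siControl replicate 3 (adjusted p = 0.0591), siNPM1c replicate 2 (0.136) or siNPM1c replicate 3 (0.0758). Also called lower were ATG9A (-0.19 ± 0.06, SE, adjusted p = 0.00391) and MAP1LC3B (-0.42 ± 0.13, adjusted p = 0.00548). MAP1LC3B lost its call with DESeq2 (adjusted p = 0.0521). ULK1, BECN1, ATG5 and ATG7 were not called.

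BAH domain genes, beside BAHCC1, had 4 of 10 tested that fell and 3 that rose, with a median of -0.11. PBRM1, a subunit of the PBAF remodeller, fell from 13.8 ± 0.893 to 9.71 ± 0.960 CPM (adjusted p = 7.83e-07), MTA1 by 0.28 (SE 0.06) and MTA3 by 0.48 (SE 0.11) on the log2 scale. TNRC18, the closest paralog of BAHCC1, was at 789, 787 and 774 CPM in the controls and 820, 827 and 810 CPM after siNPM1c. Its rise of 0.06 ± 0.02 log2 (SE, adjusted p = 0.00181) became -0.40 with library sizes alone and -0.06 with the GC trend removed, so its direction was not settled. The other genes that rose were RERE (0.28 ± 0.09) and BAHD1 (0.15 ± 0.06), at -0.18 and -0.32 with library sizes alone. RERE lost its call without siNPM1c replicate 3 (adjusted p = 0.0826), and BAHD1 without siControl replicate 1 (0.0706), siControl replicate 2 (0.102) or siNPM1c replicate 1 (0.0909) and with the GC trend removed (0.328).

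The CUT class was small, with 3 of 4 tested genes lower and 1 higher beside SATB1, and a median of -0.40. ONECUT3 fell from 4.79 ± 0.612 to 2.71 ± 0.529 CPM (adjusted p = 9.96e-06). ONECUT2 fell by 0.19 (SE 0.08), a call lost without siControl replicate 2 (adjusted p = 0.232) or any of siNPM1c replicates 1 to 3 (0.076, 0.0755 and 0.141). CUX1 rose by 0.22 ± 0.05 log2 (SE) and was at -0.25 with library sizes alone. FAM135A, the paralog of FAM135B, was at 2.54 ± 0.489 and 2.24 ± 0.547 CPM and was not called (adjusted p = 0.457).

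The 9 genes lie on 8 chromosomes, with STC1 and FAM135B on opposite arms of chromosome 8. The 2 nearest tested genes on each side of each gene gave 36 neighbours, of which 9 (25%) were called lower and 5 (13.9%) higher, near the 21.4% lower and below the 21.3% higher of all genes tested. The median log2 fold change of the 36 neighbours was -0.06, and their gaps to the 9 genes ran from 0 to 4558.1 kb. Of those called lower, MIR4740, MIR3186 and SATB1-AS1 overlap BAHCC1 or SATB1. Their reads cannot be told apart from those of the 2 genes, so their calls may repeat the decrease of chosen genes. Neither IGFBP5, PTK7, SYNPO, STC1 nor FAM135B had a neighbour called lower.

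**Figure D4:**
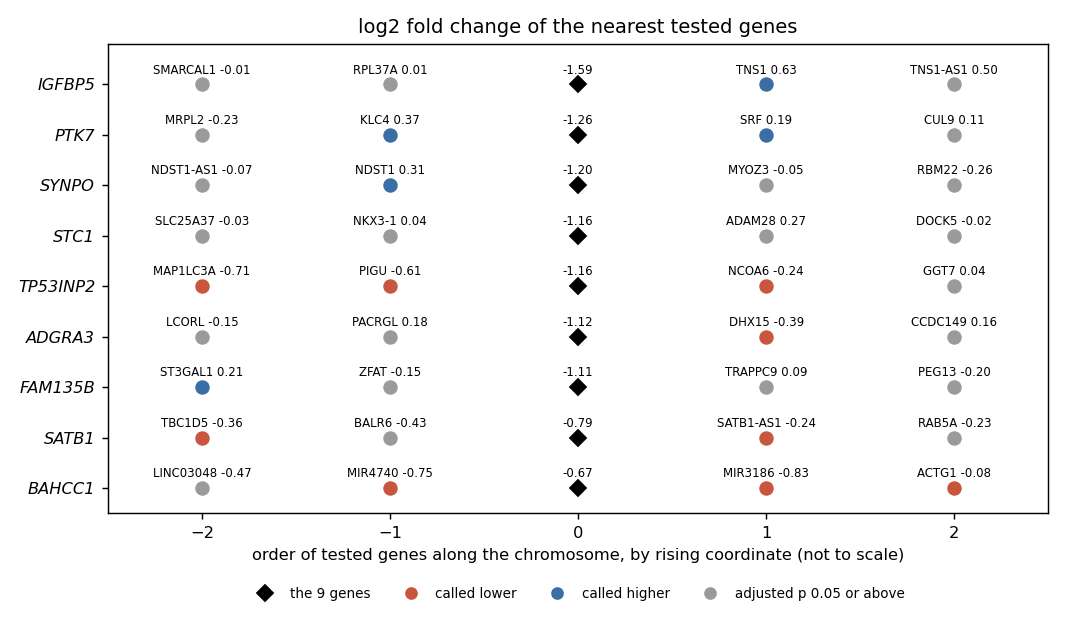
log2 fold change, siNPM1c minus siControl (numbers), of the 2 nearest tested genes on each side of each of the 9 genes (diamonds, rows), placed by their order along the chromosome (horizontal axis, not to scale) and coloured by call. Neighbours called lower lie only in the rows of TP53INP2, ADGRA3, SATB1 and BAHCC1. Of these, MIR3186 and MIR4740 overlap BAHCC1, and SATB1-AS1 overlaps SATB1.

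Beside TP53INP2 on chromosome 20, 3 of 4 neighbours fell. MAP1LC3A, described above for its role, lies 144 kb away and PIGU, a gene of GPI-anchor attachment, 27.3 kb away (-0.61 ± 0.13, SE, adjusted p = 1.71e-05). NCOA6, a coactivator of nuclear receptors whose end lies 1.3 kb away, fell by 0.24 (SE 0.09), a call lost without siControl replicate 3 (adjusted p = 0.0671), siNPM1c replicate 2 (0.0651) or siNPM1c replicate 3 (0.0973). Next to PTK7, KLC4 (0.37 ± 0.13 log2, SE) and SRF (0.19 ± 0.06) were called higher, at -0.10 and -0.29 with library sizes alone. KLC4 lost its call without siControl replicate 1 (adjusted p = 0.0638), siControl replicate 3 (0.0589) or siNPM1c replicate 2 (0.133) and with the GC trend removed (0.0613), as did SRF in that last setting (0.153). TNS1, 1104.2 kb from IGFBP5, rose by 0.63 ± 0.06 (adjusted p = 1.05e-18). NDST1 (0.31 ± 0.04), 27.8 kb from SYNPO, and ST3GAL1 (0.21 ± 0.03), 4558.1 kb from FAM135B, rose with TMM scaling. They were at -0.16 and -0.25 with library sizes alone.

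Inside BAHCC1 the annotation places the microRNA genes MIR3186 and MIR4740, on the opposite strand. MIR3186 fell from 3.45 ± 0.142 to 1.91 ± 0.170 CPM (-0.83 ± 0.19 log2, SE, adjusted p = 0.000109), next to -0.67 for BAHCC1. MIR4740 fell by 0.75 (SE 0.30), a call lost without siControl replicate 2 (adjusted p = 0.139), siControl replicate 3 (0.0904), siNPM1c replicate 1 (0.0889) or siNPM1c replicate 2 (0.244). SATB1-AS1 overlaps SATB1 on the opposite strand and held 121 to 274 counts per library. It fell by 0.24 (SE 0.10), and its call was lost without siControl replicate 1 (adjusted p = 0.127), siControl replicate 3 (0.055), siNPM1c replicate 2 (0.119) or siNPM1c replicate 3 (0.146) and with the GC trend removed (-0.02, adjusted p = 0.921). Whether strand was used in counting is not given in the sources used here, so reads of these genes and of BAHCC1 or SATB1 cannot be told apart. Also called lower were ACTG1 (-0.08 ± 0.02, 43.6 kb from BAHCC1), TBC1D5 (-0.36 ± 0.04, 602.7 kb from SATB1) and DHX15 (-0.39 ± 0.06, 2011.4 kb from ADGRA3). DHX15 lost its call with the GC trend removed (adjusted p = 0.18).

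Outside the 9, the profile over the 6 libraries was compared by Euclidean distance between row-centred log2 CPM and the mean of the 9 genes, for genes that averaged 5 CPM or more. The nearest was NPM1 itself (distance 0.0863), followed by the homeobox genes UNCX (0.140) and HOXA11 (0.189), the noncoding HOXB-AS3 (0.215) and AGPAT5 (0.226), an acyltransferase gene. For comparison, distances of the 9 genes from their own mean ran from 0.0990 for TP53INP2 to 0.600 for IGFBP5. The measure follows the group difference, which chose the 9, so it is a description.

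Several of the 9 genes are best known from other tissues, and markers of other cell types were therefore counted. Of 8 myeloid markers, 7 were tested and their CPM summed to 221 to 226 in siControl and 263 to 272 in siNPM1c libraries. By the edgeR test 4 of the 7 were called higher, 1 lower and 2 neither, against 21.3% higher and 21.4% lower over all genes tested. SPI1 went from 79.6 to 124 CPM (adjusted p = 3.3e-48). PTPRC, the only marker of the list called lower, went from 54.9 to 37.2 CPM (adjusted p = 1.26e-24). The 7 stromal markers summed to 5.40 to 6.52 and 7.30 to 8.34 CPM, with ACTA2 the most counted, and DCN, LUM and COL3A1 had 3 or 4 counts over all libraries. Endothelial markers (4 genes) summed to 0.362 to 0.754 and 1.58 to 2.25 CPM, epithelial markers (4) to at most 0.254 and 0.405 CPM, and lymphoid markers (6) to 0.942 to 1.72 and 0.903 to 2.03 CPM. The red cell marker HBB was at 0 counts, as was CD3D of T cells. With TMM scaling, myeloid, stromal and endothelial sums were higher in siNPM1c libraries, in which the 9 genes were lower. The part of these markers in the results was not tested. The sums were not taken with library sizes alone, a setting that moved the median log2 fold change of all genes from -0.01 to -0.48. SPI1 was the most counted myeloid marker, and its rise was about as large as that of the myeloid sum. The stromal and endothelial sums were each carried by a single gene, ACTA2 (4.98 to 6.32 CPM) and VWF (0.432 to 1.64 CPM). CDH5, KDR and CLDN5 had 3, 8 and 11 counts in all.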

How the data were processed

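RNA of 3 siControl and 3 siNPM1c OCI-AML3 samples was sequenced. Raw counts for each Entrez gene, not normalized, were deposited by the authors in a single table. The submitters' processing notes name DESeq2 1.34.0, STAR 2.7.5a, cutadapt 2.6 and CASAVA 1.8 as tools, with mm10 and hg38 as builds. Their roles, the counting tool, annotation and strand setting are not given in the sources used here. Columns were matched to samples by the column names in the labels, and 28261 genes had a symbol in NCBI RefSeq (GRCh38.p14).

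Counts were fitted in R 4.3.3 with edgeR 4.0.16 (filterByExpr, TMM, glmQLFit with robust = TRUE, glmQLFTest, Benjamini-Hochberg over 12938 genes, called at an adjusted p under 0.05). SE is the absolute log2 fold change over the square root of F. The fit was tested on simulated data. No pair of libraries agreed within sampling noise (chi-square per degree of freedom at least 1.46 within groups).

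The 9 genes and all lists were chosen with earlier results of these data known. Named genes were the 9, NPM1, paralogs, up to 3 called genes per list and direction, called neighbours and the 5 nearest profiles. STC2, IGF1R and other genes given for a missing call or low count were named after their values were seen. So were HOXA13, H3C1 and ACAD8 beside the ranking, ATG9A and MAP1LC3B, and SPI1, PTPRC, ACTA2, VWF and other markers. Alternatives were DESeq2 1.42.0, limma-voom (limma 3.58.1), other scalings and filters, the replicate number as a block, and each library left out. Removing the GC trend (lowess, span 0.3) and protein-coding genes only were added after seeing the data. Some genes of the lists are not reported here.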

Additional observations from a re-analysis of the deposited data

How the results depend on the processing

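All 9 genes stayed below 0 in the 18 settings run beside TMM scaling. These settings used the libraries whose contrast chose the genes, so the kept sign is no independent support. The median log2 fold change of the 9 genes was -1.63 with library sizes alone, -1.04 with the GC trend removed and -1.17 to -1.10 without 1 library. With library sizes alone 9253 genes were lower and 505 higher, among relatives 78 and 8, and among neighbours 28 and 1. That setting moved the median of all genes from -0.01 to -0.48, and the cause was not tested. DESeq2 called 1754 genes lower and 2077 higher, against 2766 and 2756 by edgeR, where the cause was not tested either. With the GC trend removed 3 neighbours were higher. Without 1 library the relatives called were 20 to 23 lower and 27 to 31 higher, the neighbours 6 to 9 and 4 to 7, and all genes 2196 to 2579 and 2435 to 2675. Same-numbered libraries did not deviate together (correlations of 0.02, -0.00 and -0.00). With 3 libraries per group, whose deviations may be mostly counting noise, this cannot tell whether the numbers mark a pairing. With the replicate number as a block 2793 genes were lower and 2793 higher, with 23 and 33 relatives, 9 and 5 neighbours and a median of -1.16 for the 9 genes. Depth limits PTK7, SYNPO and STC1 most, with 58 to 116 counts in a siNPM1c library.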
